A study of Mus musculus with 6 samples.

Results

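The CTCF sites of mouse chromosome 8 were taken as all peaks listed on that chromosome in the 3 deposited peak lists, 5014 of 102348 peaks in all. Clone C8 contributed 1683 of its 32308 peaks, clone D 1473 of 29769 and wild type 1858 of 40271, and peaks that overlapped between lists formed 2333 regions on the chromosome out of 48367 in the genome. All 3 libraries came from chromatin immunoprecipitation and sequencing of CTCF in G1E-ER4 cells, mouse erythroblasts that lack GATA1 and carry GATA1 fused to an estrogen receptor part, after 24 hours in 100 nM estradiol. Clones C8 and D are clonal sub-lines of these cells, edited with CRISPR/Cas9 and labelled as lacking detectable BRD2, and wild type here means the unedited G1E-ER4 line, which is itself GATA1-null with the fusion. Each line gave 1 CTCF library, so no difference between lines can be tested and none is given a p-value. The loss of BRD2 is stated by the labels and cannot be checked in CTCF peak lists.

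CTCF binds a long DNA motif with its zinc fingers, and cohesin that extrudes chromatin loops is halted where CTCF is bound. Its sites therefore mark many borders of chromatin domains and insulators. BRD2 belongs to the BET family, whose bromodomains bind acetylated histones, and the study compared CTCF occupancy with and without it. Chromosome 8 of the mouse carries Ctcf itself, and also Klf1 and Lyl1, a pair of genes for transcription factors of blood cells.

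Chromosome 8 was selected on measured values, the overlaps between the lists, because clone C8 peaks there overlapped the other lists less often than on other autosomes. The overlap values below therefore describe that choice and support nothing. Enrichment is the authors' fold value for each peak (what it is relative to was not stated by any source read), and −log10 p is the authors' significance value for the same peak. Both belong to 1 list and are used here to rank or match peaks within it. The lists carry no read totals, so depth is unknown, and a site missing from a list was not called there, which does not show that it was unbound.

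CTCF peaks were spread very unevenly along chromosome 8, and the windows fullest and emptiest in wild type were also full or nearly empty in both clones. The chromosome was divided into 65 windows of 2 Mb, with positions in mm9. Clone C8 had 0 to 99 peaks per window with a median of 20, clone D 0 to 93 with a median of 17, and wild type 0 to 110 with a median of 24. The window from 86000001 to 88000000 was the fullest in wild type, with 96 peaks in clone C8, 93 in clone D and 110 in wild type. Next came the window from 108000001 to 110000000, with 99 peaks in clone C8, 90 in clone D and 97 in wild type. The window from 124000001 to 126000000 held 80, 66 and 80 peaks in the same order of lists. Dense windows lay mostly in the distal part of the chromosome, and the last 26 Mb held 543 of the clone C8 peaks, 465 of the clone D peaks and 540 of the wild-type peaks.

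**Figure D1:**
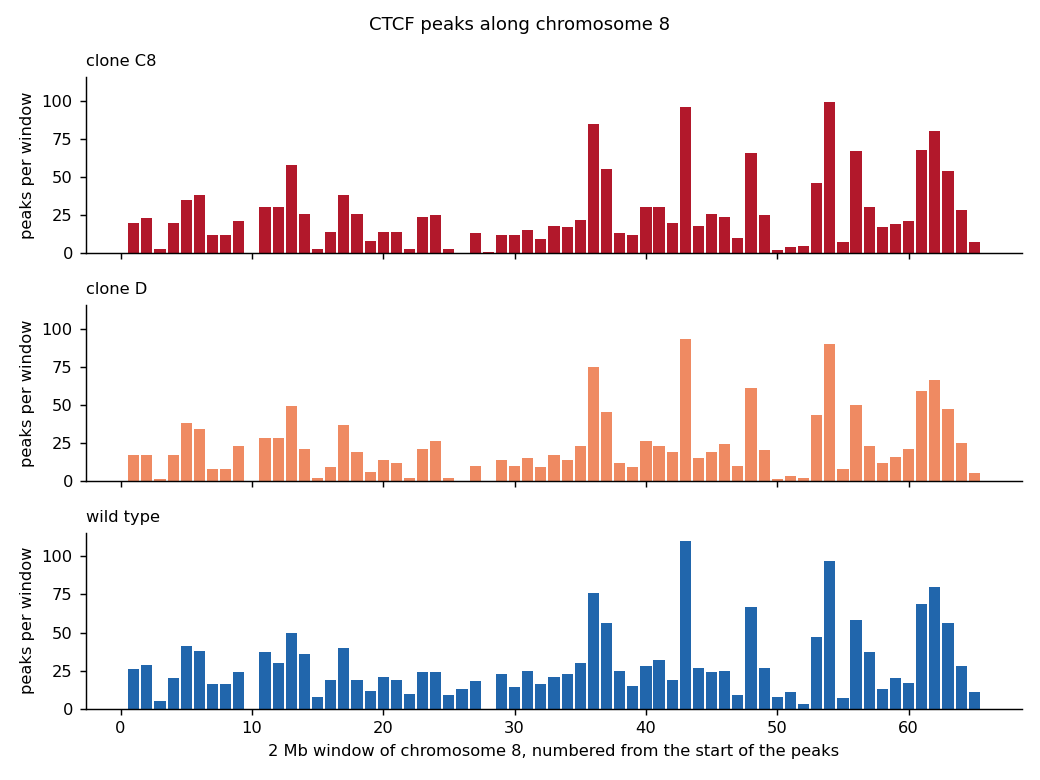
Number of CTCF peaks (vertical axis) in each 2 Mb window of chromosome 8, numbered in order along the chromosome (horizontal axis), for clone C8 (top), clone D (middle) and wild type (bottom). Tall and low bars fall at much the same places in the 3 lists, with the tallest bars at 99 peaks in clone C8, 93 in clone D and 110 in wild type.

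Sparse windows were also shared. No list had a peak from 20000001 to 22000000, and from 56000001 to 58000000 clone C8 had 1 peak and the other lists 0. Among windows with a wild-type peak, from 104000001 to 106000000 there were 5 peaks in clone C8, 2 in clone D and 3 in wild type, and from 6000001 to 8000000 there were 3, 1 and 5. From 110000001 to 112000000, next to one of the fullest windows, the lists held 7, 8 and 7 peaks. The longest interval without a peak was the same in both clones, at 3313 kb from 51379408 in clone C8 and 3313 kb from 51379414 in clone D. Wild type had 14 peaks inside the clone C8 interval, between 52021392 and 54356721, with enrichments of 9.49 to 15.18 and −log10 p of 5.279 to 7.654. In the authors' false discovery rate column, 0 of these 14 were at 0.05 or below. Of 1117 autosomal windows of 2 Mb with at least 10 wild-type peaks, 4 were empty in both clones, and 1 of these was on chromosome 8. In wild type the longest interval was 2512 kb, from 19589066 to 22100591.

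Peak number on chromosome 8 relative to the rest of each list was highest in clone C8. The chromosome held 5.37% of the autosomal peaks of clone C8 (exact 95% binomial interval 5.12 to 5.62), 5.09% in clone D (4.84 to 5.35) and 4.81% in wild type (4.60 to 5.03). These intervals, like the others given here, cover counting error and not the spread between libraries. The ratio of the clone C8 share to the wild-type share was 1.12, the highest of the 19 autosomes, followed by chromosome 11 at 1.09. The ratio of clone C8 to clone D was 1.05, the second highest after chromosome 14 at 1.10, and that of clone D to wild type was 1.06, the fourth highest. Clone C8 had the larger share of its list in 42 of the 63 windows of chromosome 8 with a peak in either clone (66.7%), against 49.3% of 1145 windows on the other autosomes, where chromosome 16 was highest at 65.3%. Against wild type it had the larger share in 36 of 64 windows (56.25%), against 47.5% of 1157 windows elsewhere. That was the third highest autosome, with chromosome 11 highest at 73.3%.

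The strength of the peaks on chromosome 8 was close to that of the rest of each list. Median enrichment was 20.8 on chromosome 8 and 21.7 on the other autosomes in clone C8, 17.97 and 17.37 in clone D, and 23.8 and 23.6 in wild type. Enrichment on chromosome 8 reached 124.36 in clone C8, 79.03 in clone D and 164.54 in wild type. The weakest members by −log10 p stood at 5.01 in clone C8, 5.008 in clone D and 5.004 in wild type, where the lowest value on the other autosomes was 5 in each list. Values below 10 made up 28.0% of chromosome 8 peaks and 30.4% of other autosomal peaks in clone C8, 25.93% and 26.03% in clone D, and 42.8% and 43.3% in wild type.

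Peaks of clone C8 were slightly wider on chromosome 8 than elsewhere, and those of the other lists were not. Median width was 431 bp on chromosome 8 and 417 bp on the other autosomes in clone C8, 486 and 492 bp in clone D, and 398 and 404 bp in wild type. The widest peak of clone C8 spanned 1103 bp (108237665 to 108238767), that of clone D 1256 bp (113824170 to 113825425) and that of wild type 994 bp (122302841 to 122303834). The median distance between neighbouring peaks was 22.7 kb in clone C8, 25.8 kb in clone D and 24.97 kb in wild type, and 17.7%, 16.6% and 18.2% of neighbours in these lists lay less than 5 kb apart. On the other autosomes the medians were 24.4, 25.3 and 23.7 kb in the same order, and 17.9%, 17.2% and 19.4% of neighbours were that close. Clone C8 was thus the list with the shortest median spacing on chromosome 8, although wild type had more peaks there. Its share of close neighbours was near that of its other autosomes. The closest pairs were separated by 3 bp in clone C8 (129084810 to 129085522), 7 bp in clone D (87513565 to 87514519) and 14 bp in wild type (114204176 to 114204965).

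The strongest sites of chromosome 8 were called in all 3 lists. The first, from 124275117 to 124275889, had enrichments of 112.27 in clone C8, 75.58 in clone D and 164.54 in wild type, at ranks 31, 47 and 27 of the whole lists. A site from 64018438 to 64019155 ranked 81 in clone C8, 82 in clone D and 44 in wild type, and one from 28787506 to 28788248 ranked 22, 35 and 91. These ranks place all 3 sites among the strongest of the genome in every list. The site from 73153481 to 73154648 stood higher in clone C8, at rank 21, than in clone D or wild type, at ranks 195 and 132. The site from 109526206 to 109526975 stood lower in clone C8, at rank 375, against ranks 178 and 74 in clone D and wild type. The sixth, from 47756676 to 47757444, ranked 254 in clone C8, 124 in clone D and 525 in wild type. Ranks of the same site in lists of different lengths are given side by side and show no change.

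No strong site of chromosome 8 was private to 1 list. At −log10 p values of 20 or more, 0 of 779 clone C8 peaks, 0 of 756 clone D peaks and 0 of 657 wild-type peaks were missing from both other lists. A count of 0 allows shares of up to 0.385%, 0.397% and 0.457%. Over the whole lists, 0.0479% of such clone C8 peaks, 0.00667% of clone D peaks and 0.232% of wild-type peaks were missing from both others, so a count of 0 on this chromosome is near the background.

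Peaks of clone C8 on chromosome 8 were found less often in the other lists than its peaks elsewhere, while peaks of the other lists on chromosome 8 were found slightly more often in clone C8. A peak counted as found when a peak of the other list overlapped it by at least 1 bp. Wild type overlapped 1289 of the 1683 clone C8 peaks on chromosome 8, 76.6% (74.5 to 78.6), against 81.4% of the whole clone C8 list. Because weak peaks are found less often, the share was set against that of clone C8 peaks of like enrichment on the other 18 autosomes, in 50 bins of the list. That expectation was 83.2%, and the difference of −6.57 percentage points (−8.66 to −4.56) was the lowest of the 19 autosomes. The other 18, each treated in the same way, lay between −1.82 (chromosome 13) and 3.72 (chromosome 12). Chromosome 8 was chosen on these overlaps, so its place outside that range only describes the choice.

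The same peaks of clone C8 were also found less often in the other BRD2-null clone. Clone D overlapped 1340 of them, 79.6% (77.6 to 81.5), against 81.3% of the whole list. The difference at like enrichment was −2.84 points (−4.84 to −0.938), again the lowest autosome, with chromosome 14 next at −2.22. The distance to the next autosome was small in this direction. In both other lists together, 1181 clone C8 peaks of chromosome 8 were found, 70.2% against 74.5% of the whole list, a difference of −6.15 points where the next lowest was chromosome 14 at −1.64.

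Clone D peaks on chromosome 8 showed a smaller difference in wild type and the opposite one in clone C8. Wild type overlapped 1225 of 1473 clone D peaks, 83.2% (81.15 to 85.04), against 85.1% of the whole list. At like enrichment this was −2.63 points (−4.64 to −0.756), the lowest autosome but close to chromosome 18 at −2.46. Without the stretch from 28000001 to 54000000 it was −1.88 (−4.01 to 0.0892), which is above the chromosome 18 value. Clone C8 overlapped 1337 of the clone D peaks, 90.8% (89.2 to 92.2), against 87.9% of the whole list. Here the difference was 2.55 points (0.960 to 3.98), the highest of the 19 autosomes, with chromosome 2 next at 1.96.

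Wild-type peaks on chromosome 8 were found in clone C8 at 1291 of 1858, 69.5% (67.3 to 71.6), against 65.3% of the whole list. The difference at like enrichment was 2.29 points (0.144 to 4.38), the highest autosome, where chromosome 19 followed at 1.49. The lower bound was close to 0, and it passed 0 without the stretch from 80000001 to 106000000, at 1.94 (−0.499 to 4.30). Clone D overlapped 1228 of them, 66.1% (63.9 to 68.2), against 63.1% of the whole list, and the difference of 1.01 points (−1.19 to 3.16) lay inside the range of the other autosomes, −3.78 to 2.44. With peaks matched by −log10 p in place of enrichment, chromosome 8 kept its place as the lowest autosome in the first 3 directions, at −6.34 for clone C8 in wild type, −3.05 for clone C8 in clone D and −2.15 for clone D in wild type. It also stayed the highest for clone D in clone C8, at 2.92, and for wild type in clone C8, at 2.93.

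Counting both other lists at once, 1180 clone D peaks of chromosome 8 (80.1%) were found in both, against 80.6% of the whole list, and 91 (6.18%) in neither, against 7.64%. For wild type, 1183 peaks (63.7%) were found in both, against 59.8% of the whole list, and 522 (28.1%) in neither, against 31.4%. For clone C8, 235 peaks (14.0%) were found in neither, against 11.9%.

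**Figure D2:**
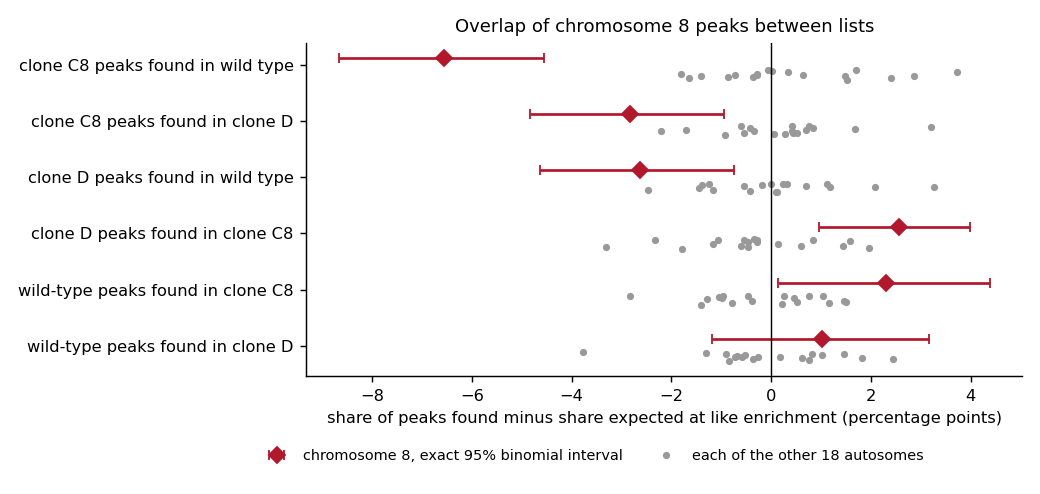
Share of chromosome 8 peaks of 1 list found in another, minus the share expected from peaks of like enrichment on the other autosomes, in percentage points (horizontal axis), for the 6 directions of comparison (rows). Red diamonds are chromosome 8 with exact 95% binomial intervals and grey points are the other 18 autosomes treated alike; clone C8 peaks in wild type stand at −6.57, outside the grey points.

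The differences in overlap lay among weak and middle peaks. Within a list, enrichment set 10 strength classes of about equal size, class 1 being the weakest. In classes 1 to 3, wild type held 42.6% of the 495 clone C8 peaks on chromosome 8 (38.2 to 47.1) and 51.2% of those on the other autosomes. In classes 4 to 6 the shares were 79.7% of 512 peaks (75.9 to 83.1) and 88.9%. In classes 7 to 10 they were 99.1% of 676 peaks and 99.6%, and in classes 8, 9 and 10 all 163, 167 and 176 peaks of chromosome 8 were found. On the other autosomes 99.6%, 99.93% and 99.97% of the peaks in classes 8, 9 and 10 were found. Overlap was thus near its ceiling and cannot show whether strong peaks differed. Ranks of the shared sites, which have no such ceiling, are given below. The deficit was largest in class 4, between enrichments of 14.58 and 17.92, at 70.0% of 203 peaks on chromosome 8 against 81.4% elsewhere.

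The comparison between the clones was narrower in strength. Clone D held 43.2% of the clone C8 peaks of chromosome 8 in classes 1 to 3 (38.8 to 47.7) and 48.8% of those on the other autosomes, but 88.1% and 90.1% in classes 4 to 6 and 99.9% and 99.8% in classes 7 to 10. In the opposite direction, clone C8 held 73.7% of the 449 clone D peaks of chromosome 8 in classes 1 to 3 (69.4 to 77.7) and 65.0% elsewhere. Weak clone D calls on chromosome 8 were thus matched by a clone C8 call more often than weak clone D calls on other chromosomes. Wild-type peaks in classes 4 to 6 were found in clone C8 at 70.1% on chromosome 8 (66.3 to 73.7) and 65.8% elsewhere, and in clone D at 63.9% (59.9 to 67.7) and 62.0%.

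The 2333 regions of chromosome 8 were sorted into 7 classes by the lists that held them. Chromosome 8 had its largest share of a class among regions that both clones held and wild type lacked. This class had 157 regions there, 6.73% of the chromosome's regions against 4.48% of all regions. That percentage was the highest of the 19 autosomes, the next being chromosome 5 at 5.18%. Chromosome 8 held 7.56% (6.46 to 8.79) of the autosomal regions of this class, against 5.03% of all autosomal regions. Clone C8 alone held 235 regions, 10.1% against 7.94% of all regions, second to chromosome 14 at 10.5%. Clone D alone held 91, 3.90% against 4.7%, and clone D and wild type without clone C8 held 44, 1.89% against 2.7%. Both of these shares were the lowest of the 19 autosomes. Regions in all 3 lists numbered 1176, 50.4% against 49.5%, close to the background.

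Wild type alone held 522 regions of chromosome 8, 22.4% against 26.2% of all regions, and clone C8 and wild type without clone D held 108, 4.63% against 4.54%. Read by list, the classes of clone C8 alone and of both clones without wild type were above their background on chromosome 8. Those of clone C8 with wild type, with or without clone D, were close to it, and the classes that lack clone C8 were below. These classes restate the overlaps on which the chromosome was chosen and support nothing. The 235 clone C8 regions found nowhere else had a median enrichment of 11.2, close to 10.4 for such regions on the other autosomes, but 28 of them (11.9%) reached a −log10 p of 10, against 6.64% elsewhere. For the 91 regions of clone D alone the shares were 5.49% and 7.92%, and for the 522 of wild type alone 6.90% and 7.41%.

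**Figure D3:**
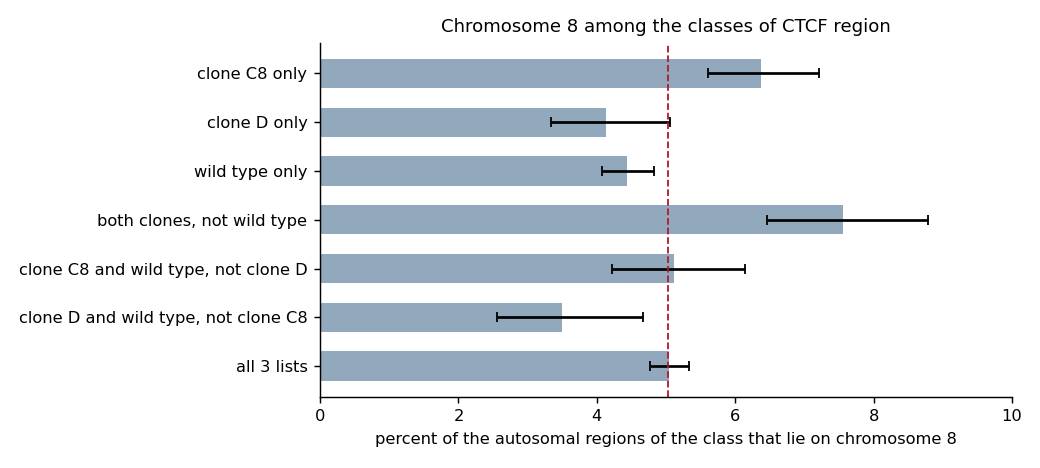
Percent of the autosomal CTCF regions of each class that lie on chromosome 8 (horizontal axis), for the 7 classes named by the lists that hold the region (rows). Bars are shares with exact 95% binomial intervals and the dashed line is the share of all autosomal regions, 5.03%; the classes of both clones without wild type (7.56%) and of clone C8 alone (6.38%) lie above it.

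The best ranked private regions of clone C8 were of middle strength. The first, from 83015375 to 83015842, reached 25.84 in enrichment and 18.146 in −log10 p, at rank 12875 of 32308, and lay 0.744 kb from the nearest clone D peak and 0.690 kb from the nearest wild-type peak. The second, from 13149318 to 13149642, had an enrichment of 21.96, and the third, from 119631511 to 119631797, one of 21.09. The fourth, from 17283847 to 17284246, stood alone, with an enrichment of 20.67 at a distance of 116 kb from the nearest clone D peak and 91.0 kb from the nearest wild-type peak. Private regions of clone D were weaker within their list: the first, from 34167273 to 34167592, had an enrichment of 14.0 at rank 18336 of 29769, and the next, from 23309994 to 23310341, one of 13.17. The other named pair, from 73488148 to 73488568 and from 74340215 to 74340724, had enrichments of 12.8 and 12.42.

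Among regions that both clones held and wild type lacked, the first, from 47308675 to 47309131, had enrichments of 24.55 in clone C8 and 19.76 in clone D, with −log10 p of 15.866 and 20.615. The second, from 35006115 to 35006705, had 23.95 and 26.34, and its −log10 p of 26.487 in clone D was the highest of the named regions that were not in all 3 lists. The third, from 114568942 to 114569578, lay 0.084 kb from a wild-type peak, just short of an overlap. The fourth, from 107313685 to 107314251, had enrichments of 26.46 and 15.64 and its nearest wild-type peak was 33.2 kb away.

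Regions of wild type alone reached enrichments of 29.74 (86394094 to 86394507) and 27.75 (87946446 to 87947007, 109201170 to 109201808 and 119633654 to 119634007), at ranks 15330 and 16417 of 40271. The last 2 lay 0.398 to 0.432 kb from the nearest clone peaks. The strongest region missing from clone D alone, from 4382139 to 4382560, had an enrichment of 24.55 in clone C8 and 39.65 in wild type. It was followed by 13105182 to 13105594, with 25.84 and 25.77, by 86248631 to 86249105, with 16.82 and 33.51, and by 24400359 to 24400884, with 16.8 and 29.74. Regions missing from clone C8 alone were led by 86522455 to 86522853, with an enrichment of 17.29 in clone D and 25.77 in wild type, 9.53 kb from the nearest clone C8 peak. The next were 124209321 to 124209720, 106927353 to 106927912 and 48638905 to 48639395, with clone D enrichments of 13.17 to 15.64 and wild-type enrichments of 23.22 to 28.09.

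Sites called in all 3 lists also stood apart on chromosome 8 by their rank in clone C8, though their calls were shared. These ranks come from the same lists as the overlaps on which the chromosome was chosen, so they are not independent of that choice. The 1176 shared regions of chromosome 8 were ranked together with the other 22140 shared autosomal regions within each list, so that the 3 rankings cover the same regions. By −log10 p, the median percentile of the chromosome 8 regions was 56.8 in clone C8, 50.5 in clone D and 47.7 in wild type. The clone C8 value was the highest of the 19 autosomes, with chromosome 1 next at 55.5. The clone D value was the eighth highest and the wild-type value the sixteenth. By enrichment the medians were closer together, at 53.8 in clone C8, 50.4 in clone D and 49.5 in wild type, and chromosome 13 exceeded chromosome 8 in clone C8 with 55.1.

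**Figure D4:**
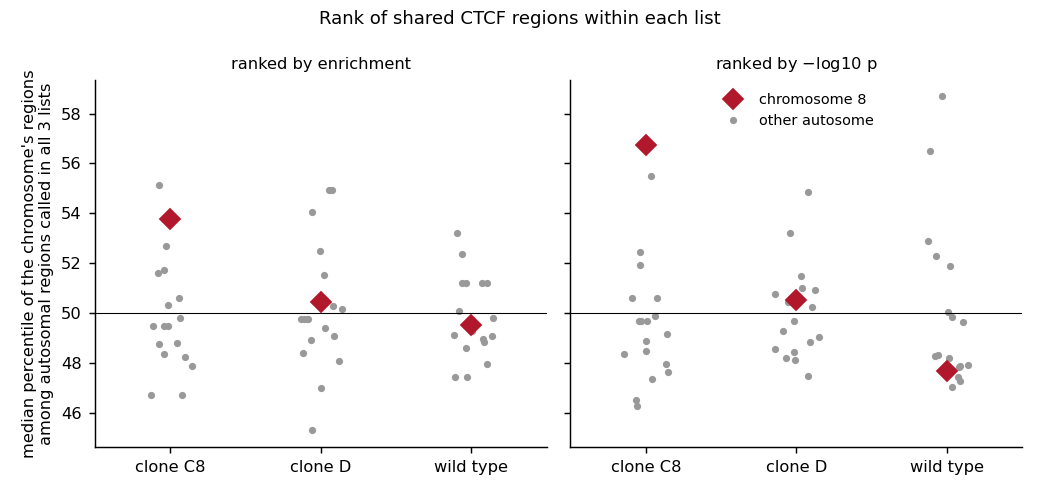
Median percentile of each autosome's regions among the 23316 autosomal CTCF regions called in all 3 lists (vertical axis), ranked within clone C8, clone D and wild type by enrichment (left) or by −log10 p (right). Red diamonds are chromosome 8 and grey points the other 18 autosomes; by −log10 p chromosome 8 is at 56.8 in clone C8, above the grey points, and at 50.5 and 47.7 in clone D and wild type.

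Region by region, 761 of the 1176 shared sites (64.7%) ranked higher by −log10 p in clone C8 than in wild type, against 49.1% of the shared sites on the other autosomes. The median shift was 5.60 percentile points on chromosome 8 and −0.237 elsewhere, and no other autosome had a median above 1.64. Chromosome 12 shifted further in the opposite direction, with a median of −6.63 and 32.1% of its sites higher in clone C8. Against clone D, 714 of the sites (60.7%) ranked higher in clone C8, with a median shift of 3.19 points, where the next autosome was chromosome 10 at 0.742. Clone D against wild type gave 653 sites (55.5%) and a median of 1.88, below chromosome 18 at 2.69. These comparisons share libraries and are not independent of each other. Single sites moved widely in both directions, with an interquartile range of −4.78 to 18.1 points for clone C8 against wild type.

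The shift was seen at all strengths of shared site. With all shared autosomal regions divided by mean percentile into 3 groups, weakest to strongest, 58.7%, 65.8% and 69.3% of the chromosome 8 sites ranked higher by −log10 p in clone C8 than in wild type, against 47.6%, 48.7% and 50.9% elsewhere. By peak width, 61.2% of the 1176 sites ranked higher in clone C8 than in wild type and 59.2% higher than in clone D, each the highest of the autosomes, against 49.8% and 49.9% elsewhere. Chromosome 12 was the lowest in both, at 38.3% and 39.9%. By enrichment the shares were 56.3% and 52.9%, against 49.97% and 49.3% elsewhere. The enrichment share against wild type was the highest autosome, and that against clone D was the third highest, below chromosome 12 at 54.0%.

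Within a list, peaks of like enrichment also differed in −log10 p by chromosome. For clone C8, peaks on chromosome 8 exceeded the median of other autosomal peaks in the same bin of enrichment by a median of 0.603, and 57.5% of them lay above it. This was the second highest autosome after chromosome 1 at 1.37. In clone D the median difference was 0.0415, the sixth highest, and in wild type −0.083, the thirteenth. The size of these differences depended on the matching. With no matching on enrichment they were 0.311 (−0.761 to 1.759) in clone C8, 0.339 in clone D and 0.215 in wild type, and in the upper 75% of each list the clone C8 value was 1.16.

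The overlap deficit of clone C8 was found in every stretch of chromosome 8. The chromosome was divided into 5 stretches of 26 Mb that begin after the first 2 Mb, which hold no peak. Clone C8 peaks found in wild type differed from the expectation at like enrichment by −6.30, −6.87, −6.12, −4.95 and −7.89 points in stretches 1 to 5. These values divide the overlaps on which the chromosome was chosen. Stretches of other autosomes were not computed, so the usual spread of a stretch is unknown. In clone D the same peaks differed by −2.52, −3.30, −3.21, −1.94 and −3.24 points. By window of 2 Mb, wild type held fewer clone C8 peaks than expected in 53 of 65 windows and more in 10, and 2 windows had no clone C8 peak. Windows of the other autosomes were not counted in this way, so these counts have no background. The lowest window was 124000001 to 126000000, with 61 of 80 found and 67.6 expected, followed by 106000001 to 108000000, with 34 of 46 found and 39.9 expected. The highest was 10000001 to 12000000, with 34 of 35 found and 32.5 expected, followed by 86000001 to 88000000, with 82 of 96 found and 80.7 expected.

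Rank shifts of the shared sites were also spread along the chromosome. Of the 54 windows of chromosome 8 with at least 5 shared regions, 52 (96.3%) had a positive median shift by −log10 p in clone C8 against wild type. On the other autosomes this held for 52.7% of 914 windows, and single chromosomes ranged from 28.9% (chromosome 12) to 62.3% (chromosome 13). Against clone D, 43 of the 54 windows (79.6%) were positive, against 43.9% elsewhere. Clone D against wild type gave 39 of 54 (72.2%), against 56.7% elsewhere and 77.1% on chromosome 18. The median shift of clone C8 against wild type was 5.37, 10.8, 5.58, 5.04 and 4.81 points in stretches 1 to 5. Ranked by enrichment, the same shifts were 2.41, 7.46, 4.96, 3.69 and −1.11 points, so that the sign turned in the distal stretch on that scale.

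**Figure D5:**
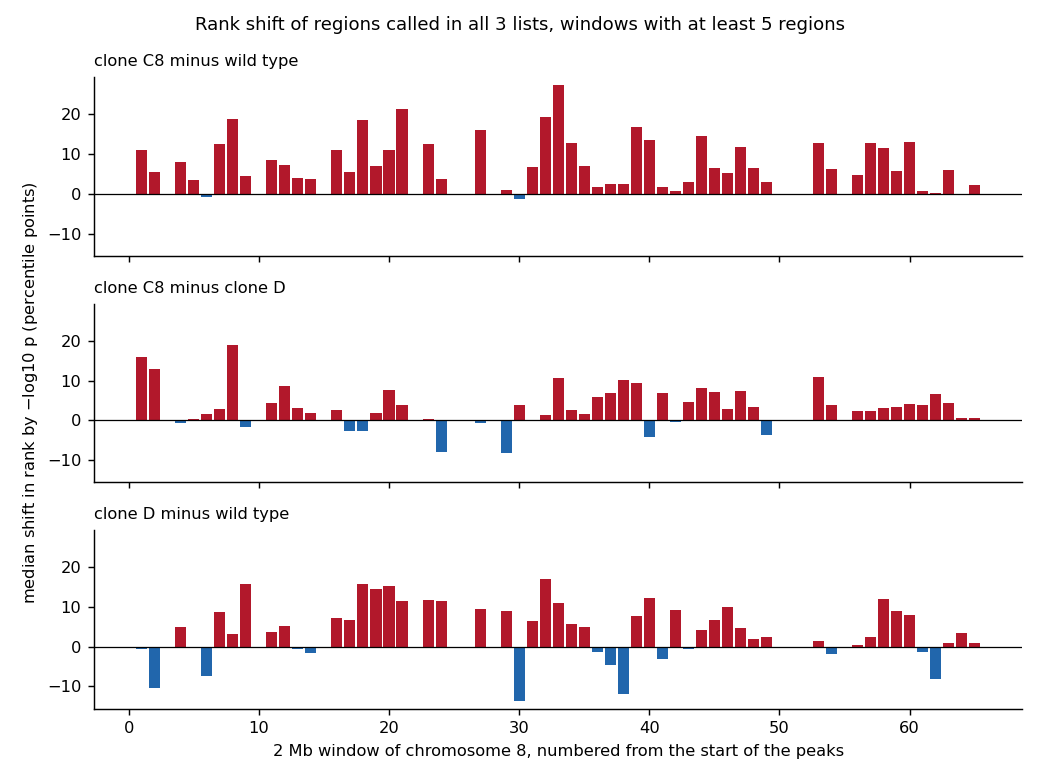
Median shift in rank by −log10 p, in percentile points (vertical axis), of the CTCF regions called in all 3 lists, per 2 Mb window of chromosome 8 in order along the chromosome (horizontal axis), for windows with at least 5 such regions. Bars above 0 are red and below 0 blue; clone C8 minus wild type (top) is positive in 52 of 54 windows, clone C8 minus clone D (middle) in 43 and clone D minus wild type (bottom) in 39.

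Clone D varied by place along the chromosome. Its deficit in wild type was largest in stretch 2, from 28000001 to 54000000, at −8.33 points, against 2.09 in stretch 1 and −2.55, −2.85 and −3.15 in stretches 3 to 5. In stretch 2 its shared sites also ranked higher than in wild type, by a median of 9.27 points over 131 regions, against 1.32, 1.81, 2.91 and 0.0986 in stretches 1, 3, 4 and 5. Clone C8 and clone D were close to each other there, with a median shift of 0.184 points, while they differed by 2.64 to 4.15 points in the other stretches. The shift of clone C8 against wild type was also largest in stretch 2, at 10.8 points, and both comparisons share the wild-type list. Wild-type peaks had a median enrichment of 18.69 there, against 21.81 to 25.77 in the other stretches. Stretches of other autosomes were not computed, so the usual spread of a stretch is unknown. Clone D peaks were found in clone C8 below expectation in stretch 2, by −2.06 points, and above it in the others, by 2.56 to 4.00 points.

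One window stood out for private clone C8 calls and was noticed after its values were seen. From 112000001 to 114000000, clone C8 had 67 peaks, clone D 50 and wild type 58, so it was among the fuller windows. Of its 83 regions, 19 were called in clone C8 alone, the most of any window of the chromosome. Such regions made up 10.1% of the regions of chromosome 8 and 7.94% of all regions. Clone D held 42 of the 67 clone C8 peaks where 50.9 were expected, and wild type held 46 where 51.7 were expected. The clone D count lay further below its expectation than in any other of the 65 windows. Windows of the other autosomes were not counted in this way, so these counts have no background.

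The differences on chromosome 8 rest on 1 library from each line. Clone C8 is 1 clone with 1 CTCF library, so a property of the clone and a property of its library cannot be told apart. Clone D is labelled as lacking BRD2 as well. Its overlap with wild type differed by −2.63 points (−4.64 to −0.756) on chromosome 8, and that of clone C8 by −6.57 (−8.66 to −4.56). The cause of either difference was not tested. Comparisons of either clone with wild type share the wild-type list, and all those of clone C8 share its list. The authors' lists also differ in length and in their share of weak peaks. With the lists brought to equal length, clone C8 in wild type differed by −6.49 points (by enrichment) or −7.28 (by −log10 p), and with −log10 p limited to 10 or more by −7.06. In the upper 75% of each list the difference was −5.22. Whether list length or weak peaks play a part was not tested.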

How the data were processed

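Chromatin immunoprecipitation for CTCF was sequenced in 3 libraries, 1 each from clone C8, clone D and wild type, and the 3 input libraries were not used here. Reads were processed with bcl2fastq 1.8.4 and Bowtie 1.0.0 against mm9, per the submitters' processing notes, and no source read names the peak caller. Each library has its own peak list from the authors. Column 7 of the deposited lists holds a fold enrichment (a ratio), column 8 the −log10 p of the peak and column 9 a false discovery rate (FDR) between 0 and 1, used as deposited. Unlike a q-value it does not follow the p-value in order: of chromosome 8 peaks with a −log10 p of 20 or more, 1 of 756 in clone D is above 0.05, at a −log10 p of 183.199. The deposited files give no read totals, so depth is unknown and limits weak peaks most.

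Positions are mm9, counted from 1. Peaks were called found at an overlap of at least 1 bp, and connected overlapping peaks formed regions. Chromosome 8 peaks were compared with those of the other 18 autosomes in 50 bins of enrichment, with ties kept in 1 bin. Each other autosome was treated in the same way. Intervals are exact (Clopper-Pearson) 95% binomial intervals, covering counting error only. No test between lines was made. The text names the strongest 6 regions in all 3 lists and the strongest 4 of each other class, by the worse rank by enrichment among the lists holding them, and windows by number of wild-type peaks (3 most, 3 fewest above 0) or by distance from expectation (2 highest, 2 lowest). The members and lists were chosen with earlier results of these data known. Alternatives were a 50% reciprocal overlap, peaks extended by 500 bp, lists of equal length, the upper 75% of each list, limits on −log10 p or false discovery rate, matching by −log10 p or none, ranking by −log10 p, 5 Mb windows and leaving out a clone or a stretch. The widest peak, closest pair and longest gap of each list were also named by rule. Sequences, gene positions and motifs are not given, since no mm9 genome was used here. Scripts used Python 3.11.15, pandas 2.3.3, numpy 2.4.6, SciPy 1.17.1 and matplotlib 3.10.9, and were tested on simulated data.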

Additional observations from a re-analysis of the deposited data

How the results depend on the processing

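Of 218 alternative values for 23 results, 196 moved by less than their counting interval, 21 moved further and 1 reversed. A value counted as reversed only if it changed side and the main interval excluded no difference. Other turns of sign are counted among the 196 and the 21. The point values of the overlap differences kept their direction, but some intervals reached past 0 with 1 stretch left out. These were clone D in wild type without stretch 2, at −1.88 (−4.01 to 0.0892), and wild type in clone C8 without stretch 4, at 1.94 (−0.499 to 4.30), or stretch 5, at 2.18 (−0.433 to 4.71). The interval for wild type in clone D held 0 from the start. The point values ranged from −8.27 to −5.22 points for clone C8 in wild type, −3.84 to −1.95 for clone C8 in clone D, −3.68 to −1.88 for clone D in wild type, 2.20 to 3.28 for clone D in clone C8 and 0.557 to 2.17 for wild type in clone D. Wild type in clone C8 reached 4.77 points with −log10 p limited to 10 or more, and its lowest value was 1.94. The chromosome 8 share of regions of clone C8 alone was 8.19% in the upper 75% of each list, 8.85% with that limit and 7.53% with false discovery rates up to 0.05, a limit that also drops 1 strong clone D site. For clone D alone it was 5.26% in the upper 75%, and 5.80% without clone C8. For wild type alone it was 3.82% at −log10 p of at least 10 and 3.64% at the false discovery rate limit. For both clones without wild type it was 5.80% to 6.80% with 1 clone left out, for clone C8 and wild type 3.76% at the false discovery rate limit, and for clone D and wild type 2.21% at −log10 p of at least 10 and 4.34% to 4.96% with 1 clone left out. The difference in −log10 p at like enrichment was 1.16, 1.01 and 0.311 in clone C8 for the upper 75%, −log10 p of at least 10 and no matching. In clone D it was 0.253 for the upper 75% and 0.339 with no matching, and its sign turned, to −0.004 and −0.168, without stretch 4 or stretch 5. In wild type it was −0.163, −0.350 and −0.242 for the upper 75%, −log10 p of at least 10 and the false discovery rate limit, and it reversed to 0.215 with no matching on enrichment. The median percentile of shared sites in clone C8 was 56.8 by −log10 p in place of enrichment. The cause of these changes was not tested. With a clone left out, a class covers only the lists that remain. No paired analysis was possible because GEO gives the libraries no replicate numbers and nothing here was tested. The motif search that had been planned was not run, since no mm9 genome was used here.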
